A study of Mus musculus with 4 samples.

Results

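The choroid plexus is the secretory epithelium of the brain ventricles, and transthyretin (Ttr), its carrier protein for thyroid hormone and retinol-binding protein, is among its most abundant transcripts. In the cerebellum of male mice, Ttr was high on 1 of 4 arrays only. On that same array 3 further choroid plexus genes, Kcnj13, Ecrg4 and Folr1, had their highest values. The other 4 measured, Kl, Clic6, Aqp1 and Otx2, did not. Of 38 other choroid plexus genes, 7 were highest there (18.4%), beside 21.4% of named genes. The set comprised 10 genes chosen by name, namely Ttr, Folr1, Kcnj13, Ecrg4, Kl, Clic6, Aqp1, Enpp2, Otx2 and Prlr, each represented by the probe set with the highest mean over the arrays. Of these 10 genes, 8 had a probe set among the 19505 named genes, each of them exactly 1, while Enpp2 and Prlr were not named by the annotation table and were not analysed here. The genes were chosen with their values in the comparison of clothianidin with vehicle already known, so these values are given as a description, without a test.

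The mice were C57BL/6N males aged 10 weeks that received by mouth either vehicle or the neonicotinoid insecticide clothianidin at 50 mg per kg per day for 4 days, the dose that the title calls NOAEL, an abbreviation for the no-observed-adverse-effect level. All animals were tested on the rotarod, a rotating rod that measures motor coordination, and brains were dissected straight afterwards. RNA from the cerebellum was read on 4 Affymetrix whole-transcript arrays, of which 2 came from vehicle mice (replicates 7 and 9) and 2 from exposed mice (replicates 6 and 7). Values are RMA summaries on the log2 scale, so a difference of 1 is a factor of 2, and are given in the order vehicle replicates 7 and 9, then clothianidin replicates 6 and 7. The labels do not say how the cerebellum was separated from neighbouring tissue.

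The choroid plexus epithelium makes cerebrospinal fluid and hangs in each ventricle, including the fourth ventricle directly beneath the cerebellum. Its cells pump ions and water, take up folate and hormones from the blood, and secrete carrier proteins. The transcription factor Otx2 is needed for its development. Neurons and glia of the cerebellum are known to express little Ttr, whereas some other genes of the set, Otx2 among them, are also active in the brain itself. In whole-tissue RNA, more cells of a type and more RNA per cell cannot be told apart.

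The upstream sequences of Kcnj13 and Ecrg4 are shown because these were the pair of the 8 genes, after Ttr, with the largest excess on the array with high Ttr. They are the 250 bases before the annotated start in RefSeq's assembly GRCm38.p6, written 5′ to 3′ on the gene's own strand. Capitals mark a TATA box (TATAAA) or a CCAAT box (CCAAT) on either strand.
Kcnj13, minus strand, chr1:87394730-87394979: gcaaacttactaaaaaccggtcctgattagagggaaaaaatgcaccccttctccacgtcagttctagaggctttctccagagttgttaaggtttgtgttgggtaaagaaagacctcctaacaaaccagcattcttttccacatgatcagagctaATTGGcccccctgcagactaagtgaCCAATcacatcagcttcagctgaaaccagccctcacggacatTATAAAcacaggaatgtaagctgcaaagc
Ecrg4, plus strand, chr1:43730352-43730601: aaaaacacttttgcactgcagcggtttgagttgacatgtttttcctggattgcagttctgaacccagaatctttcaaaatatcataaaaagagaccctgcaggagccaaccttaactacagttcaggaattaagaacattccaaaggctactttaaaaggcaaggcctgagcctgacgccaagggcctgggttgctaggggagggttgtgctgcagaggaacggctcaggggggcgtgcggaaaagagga
The Kcnj13 window held 1 TATA box, beginning at position -29, and 2 CCAAT boxes, beginning at -96 and -71, while the Ecrg4 window held none of these motifs. The OTX core motif (TAATCC, either strand), which Otx2 is known to bind, was in neither window. Of 32851 windows of the same length in the RefSeq table, 12.4% held TATAAA, 33.8% CCAAT and 6.25% TAATCC on either strand, with no overlap among the motifs in the windows shown. Among the other genes of the set, the OTX core motif was found in 1 of 4 windows of Otx2 itself, beginning at position -211. It was in none of the windows of Kl, Aqp1 and Prlr. The table held windows for 6 of the 10 genes.

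**Figure D1:**
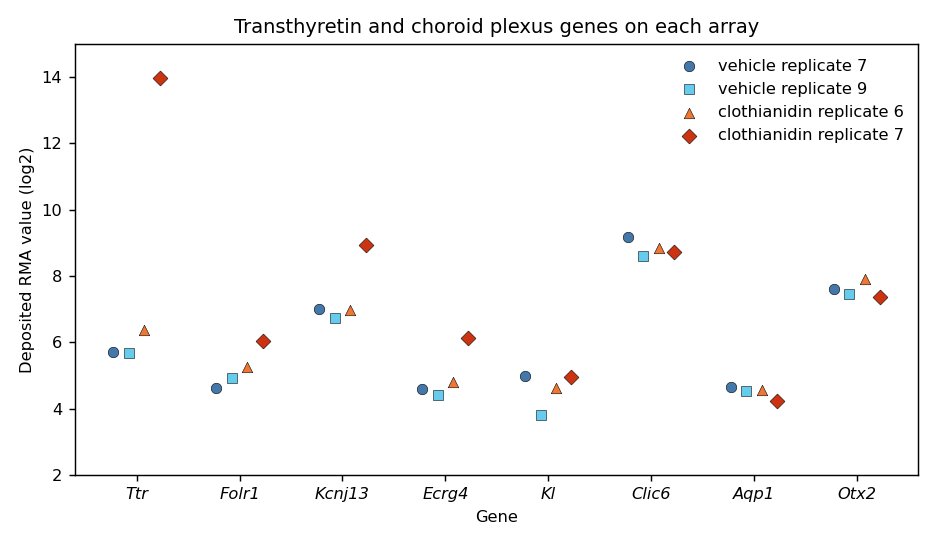
Deposited RMA value (log2, vertical axis) of the 8 measured genes (horizontal axis) on each of the 4 arrays, 1 point per array with vehicle in blue and clothianidin in orange and red. Ttr lies at 13.96 on clothianidin replicate 7 and between 5.67 and 6.38 on the other arrays, and Kcnj13, Ecrg4 and Folr1 are also highest on that array.

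Ttr (probe set TC1800000158.mm.2) was at 5.70 and 5.67 on vehicle replicates 7 and 9, at 6.38 on clothianidin replicate 6 and at 13.96 on clothianidin replicate 7. The vehicle arrays lay 0.03 apart and the clothianidin arrays 7.58 apart. Both clothianidin values lay above both vehicle values. The vehicle mean was 5.69 ± 0.02 (SD, n = 2) and the clothianidin mean 10.17 ± 5.36 (SD, n = 2), so the group difference of 4.49 was smaller than the SD of the clothianidin arrays, and without replicate 7 it was 0.70. Replicate 6 by itself was thus above both vehicle arrays by a margin far below that of replicate 7.

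To place these levels, the 1080 olfactory receptor genes on the arrays, which are hardly expressed in the cerebellum, served as a rough marker of a dim signal. Their 95th percentile, used below as the dim bound, ranged from 5.31 to 5.87 over the 4 arrays. Probe sets differ in affinity, so this bound does not tell whether a single transcript was detected. Ttr was at or near it on the vehicle arrays, just above it on replicate 7 and below it on replicate 9. On clothianidin replicate 6 Ttr was at 6.38, above that array's bound of 5.31. On a linear scale clothianidin replicate 7 was 310-fold above the vehicle mean, a factor that may be understated because the vehicle values lie at the dim bound.

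Among the uptake receptors and channels of the epithelium, Kcnj13 and Folr1 were highest on clothianidin replicate 7. Kcnj13, which encodes the inwardly rectifying potassium channel Kir7.1 of the apical membrane, was at 6.99 and 6.73 without the insecticide, against 6.97 and 8.92 with it. Clothianidin replicate 6 lay between the vehicle arrays, and replicate 7 lay 1.93 above the highest other array, a factor of 3.81. Kcnj13 lies inside the gene Gigyf2 on the opposite strand in RefSeq, and the sources used here do not say whether the values are strand-specific. Gigyf2 was at 9.36 and 9.94 in vehicle samples and at 9.53 and 9.17 in clothianidin samples, its lowest value being on clothianidin replicate 7. The array on which Kcnj13 was highest was therefore the one on which Gigyf2 was lowest.

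Folr1, the folate receptor through which the choroid plexus passes folate into the cerebrospinal fluid, was at 4.62 and 4.92 on the vehicle arrays, and at 5.24 and 6.05 after clothianidin. Its groups did not overlap, the difference was 0.88, and replicate 7 lay 0.81 above the next array. Folr1 exceeded the dim bound on 1 array, clothianidin replicate 7.

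The water channel gene Aqp1 and the chloride intracellular channel gene Clic6 had no excess on that array. Aqp1, whose product carries water across the apical membrane, was at 4.66 and 4.52 without the insecticide, against 4.56 and 4.23 with it, under the dim bound on every array. Its lowest value was on clothianidin replicate 7, where Ttr was highest. Clic6 was at 9.17 and 8.60 in vehicle samples and at 8.85 and 8.72 in clothianidin samples. Both clothianidin values of Clic6 lay between the vehicle values.

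Among the secreted and hormone-related genes, Ecrg4, which encodes a secreted peptide precursor also named augurin, was at 4.59 and 4.41 on the vehicle arrays, and at 4.80 and 6.14 after clothianidin. Its groups did not overlap, the difference was 0.97, and replicate 7 lay 1.34 above the next array, the only array on which Ecrg4 exceeded the dim bound. Kl, which encodes the FGF23 co-receptor Klotho, was at 4.99 and 3.79 without the insecticide, against 4.62 and 4.96 with it. The Kl values on the clothianidin arrays lay within the vehicle range, and all 4 were under the dim bound.

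The transcription factor gene Otx2 was at 7.62 and 7.45 in vehicle samples and at 7.92 and 7.38 in clothianidin samples. Its highest value was on clothianidin replicate 6 and its lowest on replicate 7, so the groups overlapped. Otx2, Clic6 and Kcnj13 were the 3 genes of the set above the dim bound on all 4 arrays.

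By counts, 6 of the 8 genes had a higher mean with clothianidin, as did 48.8% of named genes, and 2, Clic6 and Aqp1, had a lower one, with a median difference of 0.64 against -0.01 over all named genes. Without Ttr the median over the other 7 genes was 0.40. At least 1.5-fold higher with no overlap between the groups were 3 of 8, Ttr, Ecrg4 and Folr1, where 4.04% of all 22206 probe sets met the same rule, and 0 of 8 were as much lower, where 3.57% did. The genes were chosen for these values, so nothing is read from those counts. Against the vehicle mean, the median over the 8 genes was 0.27 for clothianidin replicate 6 and 0.93 for replicate 7. Replicate 6 exceeded both vehicle arrays for 4 genes, Ttr, Folr1, Ecrg4 and Otx2, and lay within the vehicle range for the other 4. The count of 3 was 1 without clothianidin replicate 7 and 5 without vehicle replicate 7.

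The sign of 3 small differences turned when 1 array was left out. The difference for Kl went from 0.40 to -0.20 without vehicle replicate 9, that for Clic6 from -0.10 to 0.19 without vehicle replicate 7, and that for Otx2 from 0.12 to -0.16 without clothianidin replicate 6.

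**Figure D2:**
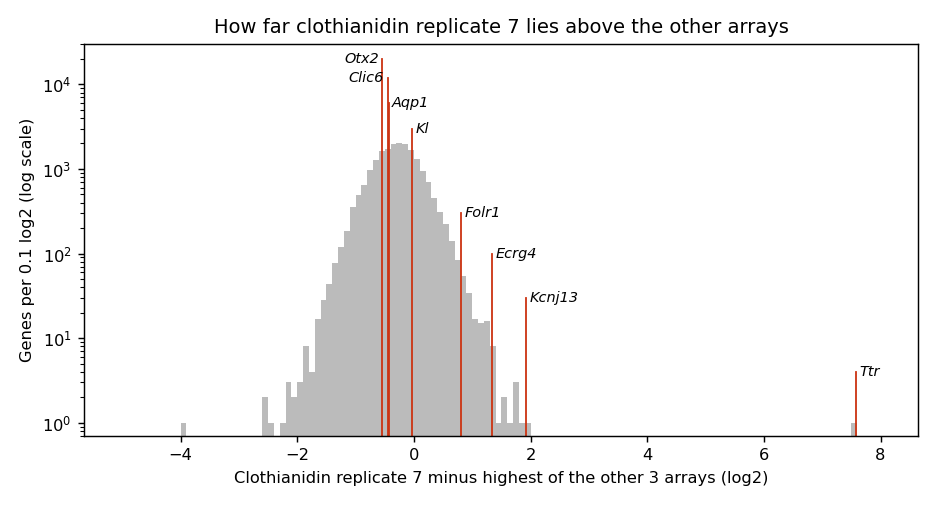
Number of named genes (vertical axis, log scale) by the log2 value on clothianidin replicate 7 minus the highest of the other 3 arrays (horizontal axis, bins of 0.1), with red lines at the 8 genes, whose heights only separate the labels. Ttr stands at 7.58, Kcnj13 at 1.93, Ecrg4 at 1.34 and Folr1 at 0.81, and the other 4 genes lie at or below -0.03.

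Single arrays stood apart for many genes. Clothianidin replicate 7 lay at least 1 log2 unit above the other 3 arrays for 66 of 19505 named genes (0.338%), vehicle replicate 7 did so for 45, vehicle replicate 9 for 80 and clothianidin replicate 6 for 47. Of the 8 genes, 3 met this on clothianidin replicate 7, and 4 lay at least 0.5 above, where 3.09% of named genes did so. The excess of Ttr, 7.58, was the largest for any named gene on any array, and the largest on another array was 2.35, for Ndst4 on vehicle replicate 7.

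The genes most like Ttr were taken as the 10 named genes, predicted genes and clone names left out, with the largest excess of clothianidin replicate 7 over the highest of the other 3 arrays. They were Kcnj13, Med21, Cck, Glra1, Xlr3c, Dpy30, Cfap126, Cenpx, Pdcd5 and Ecrg4, with excesses from 1.93 down to 1.34. Kcnj13 and Ecrg4 belong to the set, and Cfap126 to the list of motile cilia genes described below. Cck, a neuropeptide gene, was at 10.72 and 10.74 on the vehicle arrays, and at 10.25 and 12.49 after clothianidin. Glra1, a glycine receptor subunit gene, was at 7.09 and 6.73 without the insecticide, against 6.79 and 8.83 with it. For both, clothianidin replicate 6 was not above the vehicle arrays.

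**Figure D3:**
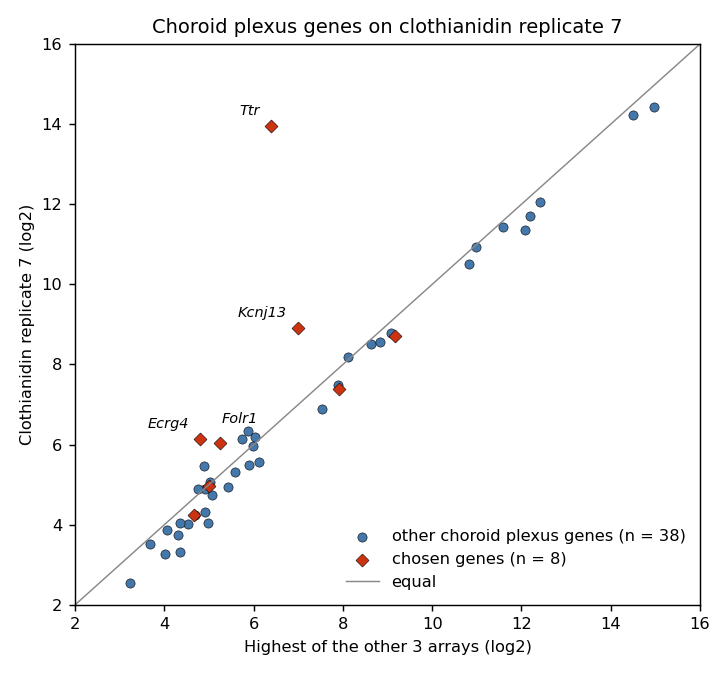
Log2 value on clothianidin replicate 7 (vertical axis) against the highest of the other 3 arrays (horizontal axis) for the 8 genes (red) and for 38 other choroid plexus epithelium genes (blue), with the line of equal values. Ttr and Kcnj13 stand 7.58 and 1.93 above the line, and of the blue points only Kcne2 stands more than 0.5 above it.

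Other genes of the choroid plexus epithelium were not higher as a group on clothianidin replicate 7. A list of 40 further genes, among them ion transporters, tight junction genes and secreted proteins, had 38 measured. Of these, 13 had a higher and 25 a lower mean with clothianidin, a median difference of -0.23 (-0.13 after a further quantile normalization, with 16 higher and 22 lower). The median was -0.05 without vehicle replicate 7 and -0.11 without clothianidin replicate 6. In limma's fit over all probe sets 0 of 38 passed an adjusted p of 0.05, where 0.0% of probe sets did, and 0 had an unadjusted p under 0.05, where 4.23% did. With 2 arrays a group, limma called 0 of 22206 probe sets, and 940 had an unadjusted p under 0.05. Of the 38 genes, 7 were highest on clothianidin replicate 7, 6 on clothianidin replicate 6, 19 on vehicle replicate 7 and 6 on vehicle replicate 9. Over all named genes 21.4% were highest on clothianidin replicate 7.

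At least 0.5 above the other arrays on clothianidin replicate 7 was 1 of the 38, Kcne2, beside 3.09% of named genes. It encodes a potassium channel accessory subunit of this epithelium. Kcne2 was at 4.89 and 4.77 in vehicle samples and at 4.11 and 5.47 in clothianidin samples, under the dim bound on every array. Sostdc1, another of the 7 genes highest on clothianidin replicate 7, was at 5.24 and 5.73 against 5.28 and 6.15. It lay 0.42 above the next array there and exceeded the dim bound on that array only. Perp, a junctional protein gene, was at 5.67 and 5.43 on the vehicle arrays, and at 5.88 and 6.33 after clothianidin, so its groups did not overlap. Slc13a4, a sulfate transporter gene, was at 8.66 and 7.92 without the insecticide, against 9.08 and 8.79 with it, highest on replicate 6 and with no overlap. Cldn1 was the only other gene of the list higher without overlap. More genes were lower without overlap, namely Slc4a5, Slc4a2, Slco1a5, Cldn2, Car14, Col8a2, F5, Krt8, Krt18, Steap1 and Cab39l. Over all probe sets, 15.1% were higher and 15.5% lower without overlap. Steap1, a metalloreductase family gene, was at 5.06 and 4.98 in vehicle samples and at 4.18 and 4.73 in clothianidin samples. Cab39l was at 12.19 and 11.79 against 11.14 and 11.71. Steap1 was under the dim bound on every array. Htr2c, the serotonin receptor gene for which the choroid plexus is well known, was at 7.54 and 6.77 in vehicle samples and at 6.04 and 6.90 in clothianidin samples. Slc22a8, an organic anion transporter gene, was at 10.83 and 9.78 on the vehicle arrays, and at 10.67 and 10.51 after clothianidin. For both Htr2c and Slc22a8 the groups overlapped and vehicle replicate 7 was highest.

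Of these 38 genes, 14 were above the dim bound on all 4 arrays and 18 were under it on all 4. Of the 19505 named genes, 10674 were above it on all 4 and 7138 under it on all 4. The brightest of the 38 were Trpm3 and Slc4a10, a cation channel and a bicarbonate transporter gene. Like Htr2c and Cab39l, they are not restricted to the choroid plexus. The log2 of the summed linear level of the list was 15.92 and 15.95 for vehicle samples against 16.16 and 15.87 for clothianidin samples, lowest on clothianidin replicate 7. Trpm3 and Slc4a10 carried 65.9% to 75.4% of that sum. Over the other 36 genes it was 14.36 and 14.24 for vehicle against 14.14 and 14.21 for clothianidin, lowest on replicate 6. Bright genes weigh most in that sum too, among them Slc12a2 (11.76 to 12.42) and Cab39l (11.14 to 12.19), so it says little about the dim genes. The same sum over the 8 genes was 10.05 and 9.66 for vehicle samples against 10.0 and 14.07 for clothianidin samples, and Ttr sets its value on replicate 7.

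Genes of the ependyma, the ciliated lining of the ventricles, gave a mixed picture on that array. Of 20 measured genes, 7 had a higher and 13 a lower mean with clothianidin, a median difference of -0.10 (-0.01 after a further quantile normalization, with 10 higher and 10 lower). At least 0.5 above the other arrays on clothianidin replicate 7 were 4 of 20, Cfap126, Dynlrb2, Hydin and Spag17, beside 3.09% of named genes. Cfap126, a cilia-associated gene, was at 5.57 and 5.27 without the insecticide, against 5.75 and 7.26 with it, and Dynlrb2, a dynein light chain gene, at 4.80 and 5.14 against 4.66 and 6.36. Hydin and Spag17, both components of the ciliary central pair, were at 4.17 and 4.60 on that array and between 2.87 and 4.02 on the others, under the dim bound throughout. The log2 summed level of the list was 10.17 to 10.19 with vehicle and 10.07 to 10.51 with clothianidin, and 16 of the 20 genes were under the dim bound on all arrays.

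**Figure D4:**
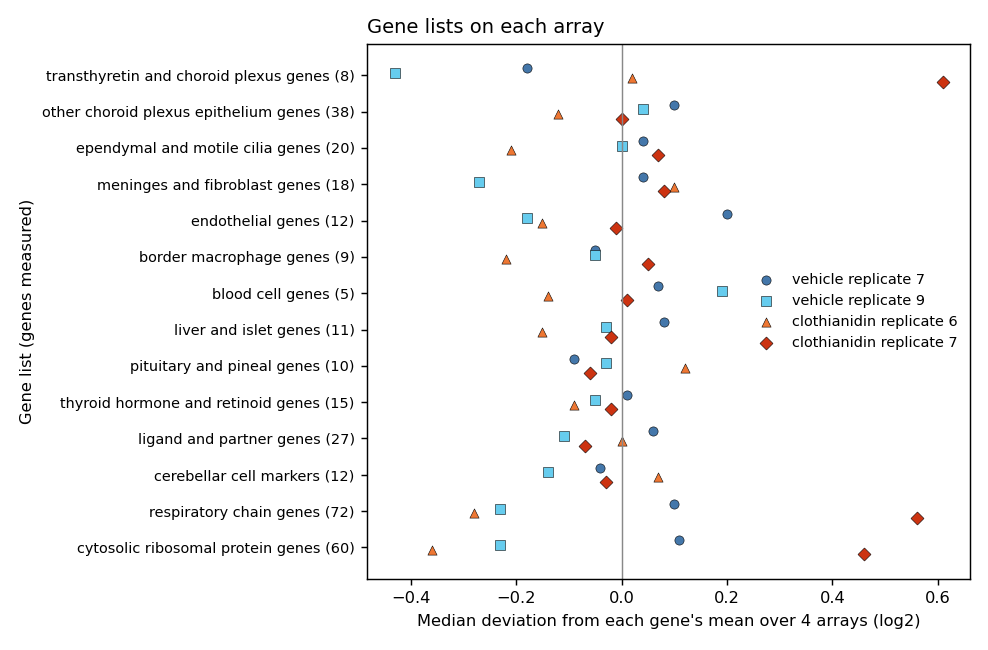
Median deviation of each gene list (vertical axis, genes measured in brackets) from its genes' means over the 4 arrays (log2, horizontal axis), 1 point per array. On clothianidin replicate 7 the 8 genes lie at 0.61, respiratory chain genes at 0.56 and ribosomal protein genes at 0.46, while the 38 other choroid plexus genes lie at 0.

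Genes of other tissue around the cerebellum had small median deviations on clothianidin replicate 7. The 18 genes of meninges and fibroblasts had 12 higher and 6 lower with clothianidin, a median difference of 0.23, and a median deviation of 0.08 on clothianidin replicate 7, 0.10 on replicate 6, 0.04 on vehicle replicate 7 and -0.27 on vehicle replicate 9. Islr was at 8.66 and 8.45 in vehicle samples and at 9.36 and 9.09 in clothianidin samples, and Slc47a1 at 5.52 and 4.33 against 5.95 and 5.83. For Islr and Slc47a1 replicate 6, not replicate 7, was the highest array. At least 1.5-fold higher without overlap were 3 of the 18, Islr, Slc47a1 and Fmod, beside 4.04% of probe sets. As much lower were 0, beside 3.57%. Highest on clothianidin replicate 7 were 6 of the 18 genes (33.3%), beside 21.4% of named genes. Among them was Mgp, a matrix protein gene, at 8.98 and 8.34 without the insecticide, against 8.99 and 9.48 with it. Another was Ptgds, the prostaglandin D synthase gene, at 16.58 and 15.91 against 16.19 and 17.01. The log2 summed level of that list was 16.35 to 17.06 with vehicle and 16.82 to 17.33 with clothianidin, highest on replicate 7.

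For 12 endothelial genes the median deviation on clothianidin replicate 7 was -0.01, and for 9 border macrophage genes it was 0.05. Plvap, which marks the fenestrated vessels of the choroid plexus stroma, was at 4.44 and 4.47 on the vehicle arrays, and at 4.42 and 5.0 after clothianidin, under the dim bound on all arrays. Ly6c1, an endothelial surface protein gene, was at 11.88 and 11.42 without the insecticide, against 10.95 and 12.47 with it. Stab1, a scavenger receptor gene of macrophages, was at 3.70 and 3.0 in vehicle samples and at 3.89 and 4.39 in clothianidin samples, with no overlap and under the dim bound on every array. At least 0.5 above the other arrays on clothianidin replicate 7 were Plvap and Ly6c1, 2 of the 12 endothelial genes. Stab1, 1 of the 9 macrophage genes, met the same rule, as did 3.09% of named genes. The log2 summed level was 13.39 to 13.89 with vehicle and 13.45 to 13.88 with clothianidin for endothelial genes, 9.11 to 9.22 and 8.92 to 9.27 for macrophage genes, and 8.49 to 8.63 and 8.26 to 8.36 for the 5 measured blood cell genes.

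Liver and pancreatic islets are the other main sources of transthyretin. Of 11 measured genes of these organs, including Alb, Apoa2 and Fgb, 0 lay above the dim bound on all arrays and 10 lay under it on every array. Their log2 summed level was 7.63 to 7.69 with vehicle and 7.62 to 7.67 with clothianidin. Of 10 measured pituitary and pineal genes, 8 were under the dim bound on every array. With clothianidin 6 were higher and 4 lower, a median difference of 0.14 (0.22 after a further quantile normalization, with 9 higher and 1 lower). These 10 genes had median deviations from -0.09 to 0.12 over the arrays. Their log2 summed level was 7.70 to 7.73 with vehicle and 7.76 to 7.86 with clothianidin, and Prl, the ligand of the prolactin receptor, was at 3.55 and 3.66 without the insecticide, against 3.89 and 4.00 with it, under the dim bound.

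The tissue label held on all arrays. All 12 measured markers of Purkinje cells, granule cells, Bergmann glia and oligodendrocytes were above the dim bound on every array, as were 10674 of 19505 named genes. Their median deviation was -0.03 on clothianidin replicate 7. At least 1.5-fold higher without overlap were 2 of the 12, Pcp2 (16.40 and 16.10 against 16.68 and 17.18) and Calb1 (15.74 and 15.75 against 16.51 and 16.30), beside 4.04% of probe sets. As much lower were 0, beside 3.57%. Pcp2 and Hopx lay at least 0.5 above the other arrays on clothianidin replicate 7, beside 3.09% of named genes. The median log2 value over all probe sets was 6.49 to 6.54 on the 4 arrays.

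Respiratory chain and ribosomal protein genes were also mostly highest on clothianidin replicate 7. Of 72 nuclear-encoded respiratory chain and ATP synthase genes, 56 were highest on clothianidin replicate 7 (77.8%), and of 60 cytosolic ribosomal protein genes 47 were (78.3%), beside 21.4% of named genes. The median deviations on that array were 0.56 and 0.46. At least 0.5 above the other arrays were 29 of 72 and 22 of 60, beside 3.09% of named genes. For named genes that share was larger on each other array, at 3.67% and 4.41% on vehicle replicates 7 and 9 and 4.2% on clothianidin replicate 6. Both lists were added after the values on this array had been seen. Whether the values of Kcnj13, Ecrg4 and Folr1 are related to the difference in these lists was not tested. Whether the Ttr signal came from choroid plexus tissue collected with the cerebellum or from cells inside it was not tested either.

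Genes that act with Ttr and the others gave no call, and neither did any other of the 22206 probe sets, so this does not set them apart. For thyroid hormone and retinoid transport, conversion and reception, 15 genes were measured. With clothianidin 8 were higher and 7 lower, a median difference of 0.03 (-0.04 after a further quantile normalization). In limma 0 of the 15 had an adjusted or unadjusted p under 0.05, where 4.23% of probe sets had such an unadjusted p. Dio2, the deiodinase that activates thyroid hormone in the brain, was at 9.14 and 8.41 in vehicle samples and at 8.12 and 8.44 in clothianidin samples. Rxra, a retinoid receptor gene, was at 6.57 and 6.16 on the vehicle arrays, and at 6.77 and 5.77 after clothianidin. Groups overlapped for Dio2 and Rxra. They did not for Rxrb, a further retinoid receptor gene, at 8.07 and 7.88 without the insecticide, against 8.37 and 8.65 with it. Nrgn, a thyroid hormone target gene, was lower without overlap, at 6.07 and 5.39 in vehicle samples and at 5.22 and 5.15 in clothianidin samples. So were Rxrg, the third receptor gene of that family, at 4.78 and 4.50 against 4.19 and 4.46, and the deiodinase gene Dio1. Nrgn was above the dim bound on 1 array only, and Rxrg and Dio1 on none. Of all probe sets, 15.1% were higher and 15.5% lower without overlap.

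Of 27 measured partner and paralog genes, 13 were higher and 14 lower, a median difference of -0.01 (0.02 with arrays centred on their median). None passed limma's adjusted threshold, and 2 had an unadjusted p under 0.05, beside 4.23% of probe sets. Fgfr1, a receptor that binds FGF23 together with Klotho, was at 8.95 and 8.18 without the insecticide, against 10.13 and 9.21 with it, with limma adjusted p = 0.997. Lpar4, a receptor for the lysophosphatidic acid that the Enpp2 product makes, was at 7.05 and 6.39 in vehicle samples and at 5.65 and 5.82 in clothianidin samples, also with limma adjusted p = 0.997. Jak2, a kinase downstream of the prolactin receptor, was at 9.13 and 9.18 on the vehicle arrays, and at 9.82 and 9.54 after clothianidin. For these 3 genes the groups did not overlap, as for 15.1% of probe sets in the higher and 15.5% in the lower direction.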

How the data were processed

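The authors deposited RMA probe set values on a log scale, taken here as log2 since no base is stated (RMA is named in the submitters' processing notes, its version is not given in the sources used here). No scanner files were used, so signal over background is unknown. Of 22206 probe sets, 19572 had 1 gene symbol in the platform annotation, 0 had several and 2634 were unnamed. RefSeq identifiers of GRCm38.p6 changed 0 symbols. With several probe sets (55 of 19505 genes) the one with the highest mean was used.

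Members and lists were chosen with earlier results of these data known, and 2 lists were added later. The fit was limma 3.58.1 in R 4.3.3 (lmFit, eBayes) over all probe sets, with Benjamini-Hochberg adjustment, tested on simulated data. The fit included the members, but no p of theirs is used as a result. In each list the genes named were mostly those with the smallest unadjusted p, the largest range or 1 array apart. The labels do not say that samples are separate animals, so p-values reflect only how these samples vary, perhaps technically. The number of arrays limits the precision. Alternatives were median centring, quantile normalization, filters on level, 1 probe set per gene, a trended prior, other fold thresholds, linear means and leaving out each array.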

Additional observations from a re-analysis of the deposited data

How the results depend on the processing

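No paired analysis was possible because the groups share 1 replicate number. Limma called 0 probe sets with all arrays and in the other scalings, filters and priors, and 0 to 1 when an array was left out. The 1 call, without clothianidin replicate 6, was Ttr, where a single clothianidin array is assumed to vary like the vehicle arrays, and it restates the value on replicate 7. The median difference over the 8 genes was 0.64, ranging from 0.27 (without clothianidin replicate 7) to 0.93 (without clothianidin replicate 6), and from 0.61 to 0.73 under the scalings and linear means. The count at least 1.5-fold higher with no overlap was 3, ranging from 1 to 5 with an array left out, and 1 at a minimum of 2-fold. For the 38 other choroid plexus genes the median was -0.23, ranging from -0.22 to -0.05 with an array left out, -0.13 after quantile normalization and -0.11 over genes at or above the median level. Causes of these shifts were not tested. With linear means the Ttr difference was 7.28 in place of 4.49.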
